A study of Homo sapiens with 6 samples.

Results

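The metallothioneins examined here were 9 human genes, MT1A, MT1E, MT1F, MT1G, MT1H, MT1M, MT1X, MT2A and MT3, and each was 1 of the 19899 rows of the deposited count table. They were chosen by gene symbol, and the rule uses no measured value. Expression was compared by RNA-seq in COV434, an established human ovarian line treated by the study as SCCOHT, a small cell ovarian cancer that comes with high blood calcium, between Control cells given the vector pCDNA3-neo (n = 3) and BRG1 cells given PBJ5-BRG1 (n = 3). BRG1 is the SWI/SNF chromatin remodeling ATPase made from SMARCA4. All 6 cultures also received the puromycin resistance plasmid pBABE-puro and were selected on puromycin (2 to 3 µg/ml, for 3 days). The libraries therefore hold RNA pooled over a transiently transfected population of 1 line, in which a change in every cell and a change in the number of responding cells cannot be told apart.

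Metallothioneins are small proteins whose cysteines hold zinc, copper and toxic metals such as cadmium. Their genes are switched on by zinc through MTF1, a zinc finger factor that binds metal response elements (MREs) before the start of transcription, and they also respond to glucocorticoids, oxidants and cytokines. MT2A and the MT1 genes are used in many tissues, MT3 is best known from brain, and MT4 is best known from stratified squamous epithelium.

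All 9 genes lie within 95.1 kb of chromosome 16, from 56589074 to 56684196 of GRCh38 in GENCODE release 44, with MT3 at the lower end and MT1X at the upper end. Each coding sequence holds 20 cysteine codons, and outside MT3 any pair of them shared between 88.7% and 94.6% of bases, with a median of 91.9%. The coding sequences of the 3 members with more than a stray count are shown, because reads from such similar genes must be divided among them. In MT2A the capitals mark the cysteine codons, and in MT1X and MT1F they mark the bases that differ from MT2A, 14 and 16 of 186.
MT2A: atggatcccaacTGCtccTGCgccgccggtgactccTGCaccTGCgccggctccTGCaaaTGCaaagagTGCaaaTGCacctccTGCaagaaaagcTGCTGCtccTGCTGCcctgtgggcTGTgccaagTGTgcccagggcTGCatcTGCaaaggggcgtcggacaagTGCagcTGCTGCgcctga
MT1X: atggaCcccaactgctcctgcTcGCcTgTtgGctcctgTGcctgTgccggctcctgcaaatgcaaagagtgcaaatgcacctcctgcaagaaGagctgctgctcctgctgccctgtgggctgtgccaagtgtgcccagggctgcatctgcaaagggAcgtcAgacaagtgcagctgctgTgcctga
MT1F: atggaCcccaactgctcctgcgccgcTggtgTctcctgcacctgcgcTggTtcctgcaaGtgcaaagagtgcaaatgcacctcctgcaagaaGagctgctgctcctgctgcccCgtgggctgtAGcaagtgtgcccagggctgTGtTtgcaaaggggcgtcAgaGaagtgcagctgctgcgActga
MT1X differs from MT2A at 6 of 61 codons by the amino acid encoded, and MT1F at 5. A read is 78 bases, so each main transcript was searched in windows of that length against 58 transcripts of 29 genes. These are the genes inside the locus and, elsewhere, genes named as MT1 genes or MT1 pseudogenes. Any pseudogene of MT2A outside the locus was not searched. No window of MT2A (0 of 324) or of MT1F (0 of 348) occurred in another searched gene. For MT1X 113 of 327 windows (34.6%) did, 89 of them in a noncoding gene that starts at the same base, 19 in MT1G and 10 in the pseudogene MT1XP1. None was in MT2A, and the level of MT1X is uncertain to that extent.

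SMARCA4, the transfected gene, was checked first. Its normalised count, which is the estimated count divided by the DESeq2 size factor of the library, lay between 1439 and 1676 in Control and between 78589 and 108655 in BRG1 samples, plasmid transcripts included. Totals ran from 29699741 to 63613710 estimated counts per library, with BRG1 replicate 3 the shallowest. Of the granulosa cell markers checked, because COV434 was once classed with that cell type, FOXL2, FSHR and NR5A1 stayed at or below 3 normalised counts in all but 1 library, where NR5A1 was at 3.32. CYP19A1, which encodes aromatase, and INHBB, an inhibin subunit, rose from 23.3 ± 8.03 to 322 ± 115 and from 13.9 ± 3.96 to 176 ± 65.9 (SD, n = 3; DESeq2 adjusted p 8.7e-20 and 7.7e-15, edgeR 7.2e-04 and 0.00107). The other 3 of the 8 markers did not pass the test, with AMH at 295 ± 90.7 and 408 ± 59.8, INHA at 41.9 ± 4.91 and 38.2 ± 3.20, and STAR at 5.06 ± 2.92 and 3.60 ± 3.14 in Control and BRG1 (SD, n = 3; DESeq2 adjusted p 0.373, 0.923 and 0.932). Of 6 markers of other cell types, EPCAM was at 0 in 5 of 6 libraries, PTPRC lay between 336 and 722 in both groups without a called change (DESeq2 adjusted p 0.977), and PDGFRA rose from 6.60 ± 3.38 to 66.8 ± 37.3 (SD, n = 3; DESeq2 adjusted p 8.1e-06, edgeR 0.00851). CDH1, the other epithelial marker, lay between 3.65 and 57.5 in Control and between 8.31 and 31.2 in BRG1 libraries (DESeq2 adjusted p 0.995). COL1A1 was at 67.9 ± 31.0 in Control and 126 ± 29.6 with BRG1 (SD, n = 3, DESeq2 adjusted p 0.151). PECAM1 was at 10.6 ± 11.9 and 19.0 ± 16.1 (SD, n = 3, DESeq2 adjusted p 0.817). The part of these markers in the metallothionein values was not tested.

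Metallothionein RNA in COV434 came almost wholly from MT1X and MT2A, which together held between 99.6% and 99.9% of the family's counts in every library. MT2A rose 1.63-fold with BRG1, MT1X did not pass the test, and MT1F was barely detected. The other 6 members never exceeded 1 estimated count after rounding, in Control or in BRG1 samples. DESeq2 gave an adjusted p to 3 of the 9 members and called 1 of them higher and 0 lower, and edgeR also called 1 higher and 0 lower. Among all tested genes DESeq2 called 11.0% higher and 1.84% lower, and edgeR 9.57% and 1.02%. Limma-voom (9.31% and 1.19% of all genes), DESeq2 with the replicate number as a block (13.4% and 6.61%) and edgeR with that block (13.7% and 5.68%) also called MT2A and no other member. The backgrounds are such that 1 call among so few genes is no result about the family as a whole.

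MT2A (chromosome 16, 56608584 to 56609497, plus strand) is the family member most often used as a marker of metal and stress responses. Its normalised counts were 2073, 2173 and 2346 in Control replicates 1 to 3 and 3687, 3753 and 3321 in BRG1 replicates 1 to 3. Every BRG1 library lay above every Control library, and the gap between the groups was wider than the spread within either. The means were 2197 ± 138 and 3587 ± 233 (SD, n = 3). On the log2 scale the difference was 0.71 (SE 0.13), and the fold of 1.63 had a 95% interval of 1.37 to 1.95. Adjusted p-values were 1.4e-06 in DESeq2, 0.00401 in edgeR and 0.00508 in limma-voom. Pairs of the same number gave folds of 1.78, 1.73 and 1.42, so the rise was present in each pair of libraries.

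MT1X (chromosome 16, 56682470 to 56684196, plus strand) was the most abundant member of Control cells. It had 4511, 3864 and 3654 normalised counts in Control replicates 1 to 3 and 2722, 4069 and 3381 in BRG1 replicates 1 to 3. The groups overlapped, and BRG1 replicate 1 was the lowest library. The means were 4010 ± 447 and 3391 ± 674 (SD, n = 3), or -0.24 on the log2 scale (SE 0.20; DESeq2 adjusted p 0.591, edgeR adjusted p 0.484). The 95% interval of the fold ran from 0.646 to 1.11, which leaves room for a moderate fall and for a slight rise. Exons of the overlapping noncoding gene cover 18.6% of the exonic bases of MT1X. The 89 windows shared with it match in the same direction, so strand, which the libraries do not keep, would not separate them.

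MT1F (chromosome 16, 56657731 to 56660698, plus strand) was close to the limit of detection. Control replicates 1 to 3 held 12.2, 14.1 and 6.06 normalised counts and BRG1 replicates 1 to 3 held 11.6, 19.9 and 25.4. The groups overlapped, and in replicate 1 the BRG1 library was the lower of the pair. The log2 difference was 0.82 (SE 0.70; DESeq2 adjusted p 0.612, edgeR adjusted p 0.459), and the 95% interval of the fold, from 0.685 to 4.56, was too wide for a statement of direction.

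**Figure D1:**
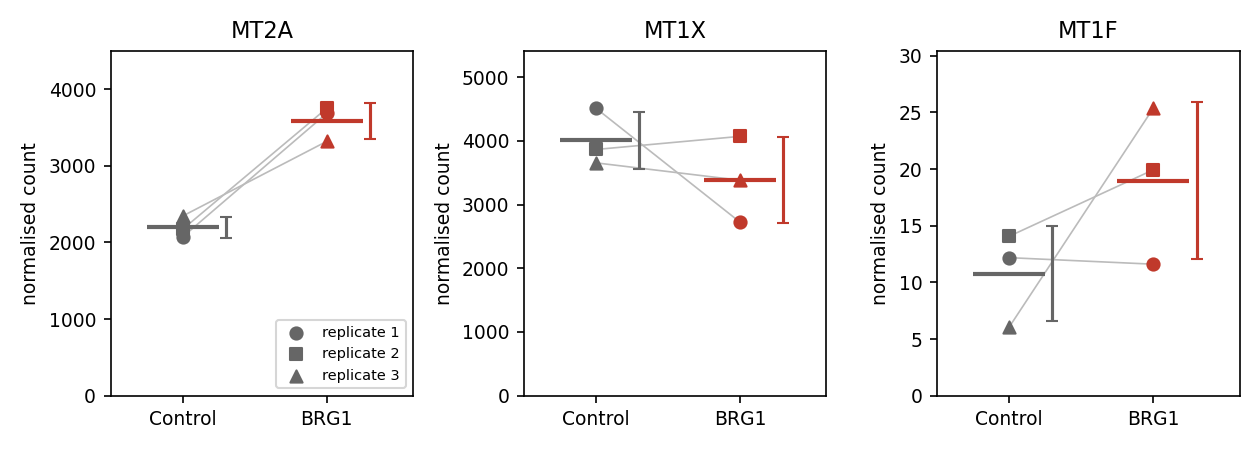
Normalised counts of MT2A, MT1X and MT1F in the 3 Control and 3 BRG1 libraries; each vertical axis starts at 0, horizontal bars are group means, error bars are SD and grey lines join libraries of the same replicate number. The BRG1 libraries of MT2A sit between 3321 and 3753, all above the Control libraries, while the groups overlap for MT1X and MT1F.

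MT1E, MT1H, MT1M and MT3 were listed at 0 in all 6 libraries. MT1A had 1 count in Control replicate 2 and 1 in BRG1 replicate 3, and MT1G had 1 count in BRG1 replicate 1. No fold is given for these 6 genes. A count of 0 allows up to 3 counts, which is 0.0472 to 0.101 CPM (counts scaled to the library total) in these libraries, while the family together took 128 to 173 CPM. That limit covers counting error only, and a 0 from a model that divides shared reads can also be a failed estimate. MT1E shared 8 of its 669 windows with MT1G, MT1H shared 32 of 320 with MT1HL1, and MT1A, MT1M and MT3 shared 0. Of the metallothionein genes outside the list, MT1B and MT4 were also listed at 0 in all libraries and MT1HL1 had 1 count in 2 of them. MT4 was thus not detected in either group.

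**Figure D2:**
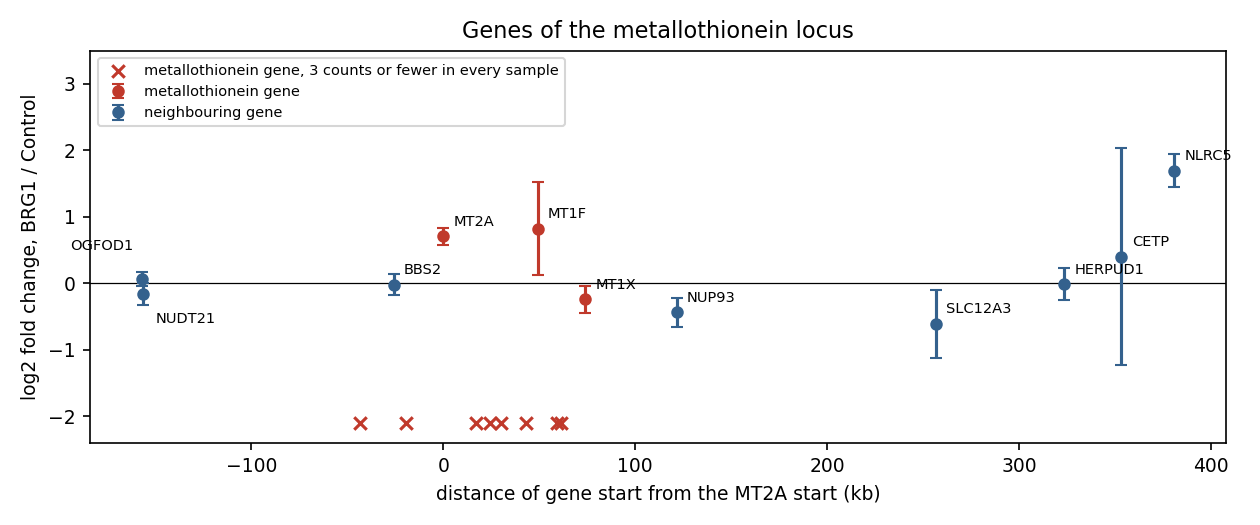
DESeq2 log2 differences (BRG1 over Control) with standard errors for genes of the metallothionein locus and 8 of its 9 neighbours, placed by the distance of their start from that of MT2A; crosses, drawn below the other values and without a fold change, mark metallothionein genes with 3 counts or fewer in every library. MT2A, MT1F and MT1X lie among 8 such genes, and NLRC5, at 381 kb, has the largest rise.

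Because the members are so similar, their sum was also examined, which does not depend on how reads were divided among them. It can still depend on how MT1X reads were divided with the noncoding gene and MT1XP1, which shared 89 and 10 of 327 windows. The sum was 6597, 6052 and 6005 normalised counts in Control replicates 1 to 3 and 6422, 7842 and 6728 in BRG1 replicates 1 to 3. The groups overlapped, and the mean of BRG1 was 1.13 times that of Control. Within replicate numbers the ratio was 0.974, 1.30 and 1.12. The group means were 6218 ± 329 and 6997 ± 747 (SD, n = 3), so the difference was larger than the SD of either group, while 1 of the 3 pairs went the other way. The sum was given no test.

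The composition of that total moved more. MT2A made up 31.4%, 35.9% and 39.1% of it in Control and 57.4%, 47.9% and 49.4% in BRG1 replicates 1 to 3. The ratio of MT2A to MT1X, which needs no scaling between libraries, was 0.460, 0.562 and 0.642 in Control and 1.35, 0.922 and 0.982 in BRG1 samples. Neither measure overlapped between the groups. Both were chosen after the values were seen and are given without a test. Per kilobase of the main transcript, of 401 bases in MT2A and 404 in MT1X, the mean level in Control was 9925 normalised counts for MT1X, 5479 for MT2A and 25.3 for MT1F. In BRG1 samples these levels were 8393, 8945 and 44.6, and MT1X and MT2A no longer differed beyond their spread. The change in the ratio was largest in replicate 1, which held the highest MT1X library of all (Control) and the lowest (BRG1).

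**Figure D3:**
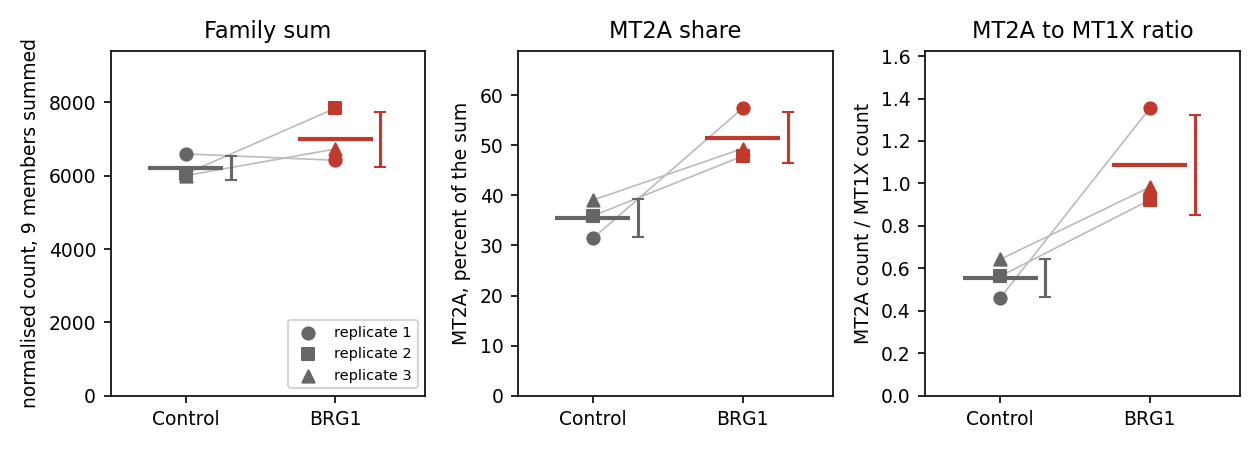
Summed normalised count of the 9 members, percent of that sum from MT2A, and count of MT2A over count of MT1X in each library; vertical axes start at 0, horizontal bars are group means, error bars are SD (n = 3) and grey lines join libraries of the same replicate number. The sums overlap, whereas the MT2A share is 31.4% to 39.1% in Control and 47.9% to 57.4% in BRG1 samples.

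The sequences before MT2A and MT1X were compared next, because these genes share a locus and a known regulator. The RefSeq promoter table, on GRCh38.p14, held 3 of the 9 members, MT2A, MT1X and MT1H, and also MT1B and MT4. The 250 bases before each start were searched on both strands for the MRE core, TGCGCNC or TGCACNC. Those of MT2A (chr16:56608334-56608583, plus strand) and of MT1X (chr16:56682220-56682469, plus strand) are shown with MRE cores in capitals.
MT2A: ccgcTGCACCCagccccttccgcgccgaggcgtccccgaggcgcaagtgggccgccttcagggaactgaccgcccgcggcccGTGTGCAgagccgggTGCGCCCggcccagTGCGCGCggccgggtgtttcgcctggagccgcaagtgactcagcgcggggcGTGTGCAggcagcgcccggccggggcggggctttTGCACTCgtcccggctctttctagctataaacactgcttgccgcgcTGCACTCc
MT1X: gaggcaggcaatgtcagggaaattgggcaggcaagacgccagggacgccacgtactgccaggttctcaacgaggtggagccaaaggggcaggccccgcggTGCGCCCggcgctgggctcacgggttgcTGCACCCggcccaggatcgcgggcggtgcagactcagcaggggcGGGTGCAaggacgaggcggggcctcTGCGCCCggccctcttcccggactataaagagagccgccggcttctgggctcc
MT2A held 7 MRE cores and MT1X held 4. Of 35116 promoters of the same length 24.8% held at least 1 and 0.370% held at least 4. MT1H, which was listed at 0 in every library, held 8, so the number of these letters did not follow the level. The AP-1 site, TGAGTCA or TGACTCA, was searched because the study links BRG1 to AP-1, a dimer of FOS and JUN family proteins. MT2A held 1, at positions -104 to -98 from the start, MT1X, MT1H and MT4 held 0, and 4.20% of all promoters held at least 1. MT1B, which was listed at 0 in every library, also held 1, at positions -146 to -140. No MRE core overlapped the site of MT2A. These matches are letters in a window and not evidence of binding.

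**Figure D4:**
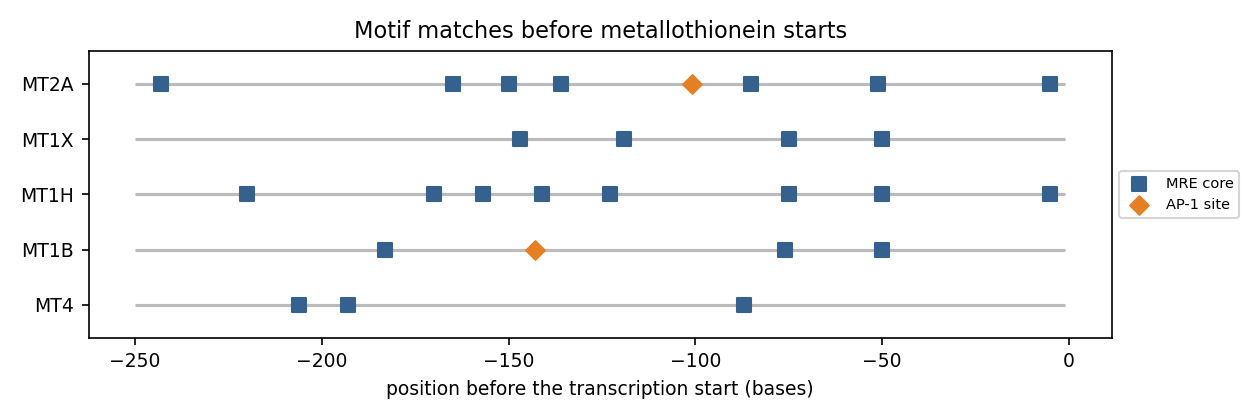
Positions of MRE cores (squares) and AP-1 sites (diamonds) in the 250 bases before the start of 5 metallothionein genes, with the horizontal axis in bases from the start. MT2A carries 7 MRE cores and 1 AP-1 site, MT1X carries 4 MRE cores and no AP-1 site, and the undetected MT1B also carries 1 AP-1 site.

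Genes beside the family were compared to see whether the whole region moved. Of 9 neighbours, DESeq2 called 1 higher and 0 lower, beside 11.0% and 1.84% of all tested genes. EdgeR, which tested 8 of them, also called 1 higher and 0 lower, beside 9.57% and 1.02%. Calls near those shares are no result about the region. The median log2 difference of the neighbours was -0.02, against -0.01 over all tested genes. BBS2, a ciliary protein gene that flanks the cluster on the MT3 side, stood at 1524 ± 123 and, with BRG1, at 1508 ± 181 normalised counts (SD, n = 3; DESeq2 adjusted p 0.977). NUP93, a nuclear pore gene on the MT1X side, had a log2 difference of -0.44 (DESeq2 adjusted p 0.212), and was called lower only with the replicate number as a block (adjusted p 5.4e-04 in DESeq2 and 0.0231 in edgeR). NLRC5 (chromosome 16, 56989485 to 57083531), an interferon-responsive activator of MHC class I genes, rose from 796 ± 57.2 to 2577 ± 759 (SD, n = 3), and its adjusted p was 8.0e-11 in DESeq2 and 0.00174 in edgeR. It was the called neighbour, and the farthest from MT2A.

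Zinc handling was examined through MTF1 and 24 zinc transporter genes, since free zinc is the main signal for these promoters. None was called by DESeq2 (0 of 22 with an adjusted p, and 0 at an unadjusted p under 0.05) or by edgeR (0 of 18). At an unadjusted p under 0.05 edgeR had 1 lower and 0 higher. Over all tested genes DESeq2 called 11.0% higher and 1.84% lower, and edgeR 9.57% and 1.02%. With the replicate block DESeq2 called SLC39A7, a zinc transporter of the secretory pathway, lower (log2 difference -0.25, adjusted p 0.0382), which edgeR with the block did not (adjusted p 0.0605), and at an unadjusted p under 0.05 each had 4 lower and 1 higher. Over all tested genes that block called 13.4% higher and 6.61% lower in DESeq2, and 13.7% and 5.68% in edgeR. Shares of all genes at an unadjusted p were not computed. The median log2 difference of the zinc handling genes was -0.04, or -0.05 with floor values at their bound, against -0.01 over all tested genes. MTF1 was at 1285, 1028 and 818 in Control and at 1089, 1285 and 970 in BRG1 replicates 1 to 3, in normalised counts (log2 difference 0.10, DESeq2 adjusted p 0.903).

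SLC30A1, which exports zinc and is the best known target of MTF1 outside the metallothioneins, had 2691, 3019 and 803 normalised counts in Control and 2312, 3250 and 831 in BRG1 replicates 1 to 3. Both libraries of replicate 3 were low, and the groups overlapped (log2 difference -0.03, DESeq2 adjusted p 0.993). The folds of SLC30A1 in pairs of one number were 0.859, 1.08 and 1.04, beside 1.78, 1.73 and 1.42 for MT2A. MT2A in replicate 3 was the highest of the Control libraries, at 2346, and the lowest of the BRG1 libraries, at 3321.

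Copper handling genes import, export or carry copper, which metallothioneins also bind. Of 16 such genes, with a median log2 difference of 0.10, DESeq2 called 2 higher and 0 lower, beside 11.0% and 1.84% of all tested genes. EdgeR tested 15 and called 0 in either direction, beside 9.57% and 1.02%. Before adjustment, 3 higher and 0 lower had a p under 0.05 in edgeR, a threshold at which the share of all genes was not computed. Calls near the shares at an adjusted p are no result about the list. STEAP3, a metalloreductase, rose from 85.0 ± 3.62 to 162 ± 36.7 normalised counts (SD, n = 3; DESeq2 adjusted p 0.00956, edgeR adjusted p 0.0769). SLC31A2, a copper transporter of endosomes, rose from 366 ± 60.7 to 676 ± 255 (SD, n = 3; DESeq2 adjusted p 0.0321, edgeR adjusted p 0.116). With the replicate block both tools called these genes and also ATOX1, a copper chaperone (log2 difference 0.49, DESeq2 adjusted p 0.00235, edgeR adjusted p 0.0219), which was chosen after its values were seen. With that block DESeq2 called 13.4% and edgeR 13.7% of all tested genes higher. Without Control replicate 2 or 3 or BRG1 replicate 1, DESeq2 called 0 genes of this list. In those fits all genes called higher numbered 1535, 1515 and 1350, against 1764 with every library.

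Oxidant response genes were examined through NRF2, the product of NFE2L2, and genes known to respond to it, because oxidants release zinc from metallothioneins and induce them. Of 26 genes, of which 25 had an adjusted p, DESeq2 called 5 higher and 0 lower, beside 11.0% and 1.84% of all tested genes. EdgeR tested 23 and called 3 higher and 0 lower, beside 9.57% and 1.02%. The replicate block raised the NRF2 calls to 10 higher and 3 lower by DESeq2, beside 13.4% and 6.61% of all tested genes. By edgeR they rose to 9 and 2, beside 13.7% and 5.68%. DESeq2 without BRG1 replicate 1 or 2 called 3 higher, while all genes called higher fell from 1764 to 1350 and 1368. The median log2 difference of the NRF2 genes was 0.17, or 0.31 with floor values at their bound, against -0.01 over all tested genes. TXNRD1 (thioredoxin reductase) had 12865, 9903 and 7364 normalised counts in Control and 50713, 28827 and 15721 in BRG1 replicates 1 to 3, a log2 difference of 1.66 (DESeq2 adjusted p 2.9e-04, edgeR adjusted p 0.0369). Its groups did not overlap, and replicate 1 was highest and replicate 3 lowest in each group.

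AKR1C2 and AKR1C1, aldo-keto reductases, had log2 differences of 3.80 and 1.91 (DESeq2 adjusted p 1.7e-10 and 3.2e-05, edgeR 0.00344 and 0.0122), but are near-identical in sequence, and how their reads were shared out is uncertain. GCLM, a subunit of the enzyme that starts glutathione synthesis, had a log2 difference of 1.09 (DESeq2 adjusted p 0.0239), a call that edgeR did not make without the block (adjusted p 0.120). ABCC3, a transporter of conjugates, was listed at 0 in each Control library and was at least 5.46-fold higher in BRG1 samples, measured against 3 counts per library, with BRG1 replicate 3 itself at 1.49 normalised counts, and was too low for the edgeR test. HMOX1, the heme oxygenase gene also induced by metals and chosen after its values were seen, had 5349, 2909 and 1033 normalised counts in Control and 13404, 4281 and 1182 in BRG1 replicates 1 to 3. Its spread between replicate numbers was larger than the difference between groups (DESeq2 adjusted p 0.693), and with the replicate block it was called (DESeq2 adjusted p 0.00278, edgeR 0.0413). NFE2L2 itself had a log2 difference of 0.44 and was not called without the block (DESeq2 adjusted p 0.554, edgeR 0.558). With the block it was called higher (DESeq2 adjusted p 9.97e-04, edgeR 0.0228). FTH1, TKT and OSGIN1 were likewise called higher by both tools with the block and by neither without it. With that block SLC7A11, BLVRB and GSR were called lower by DESeq2 (log2 differences -0.45, -0.28 and -0.28, adjusted p 0.0104, 0.0224 and 0.0316). EdgeR with the block called BLVRB and GSR lower (adjusted p 0.0403 and 0.0399) and not SLC7A11 (0.0539). MT2A was called with and without the block, which leaves its log2 difference at 0.71 (DESeq2 adjusted p 7.3e-08, edgeR 0.00174).

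**Figure D5:**
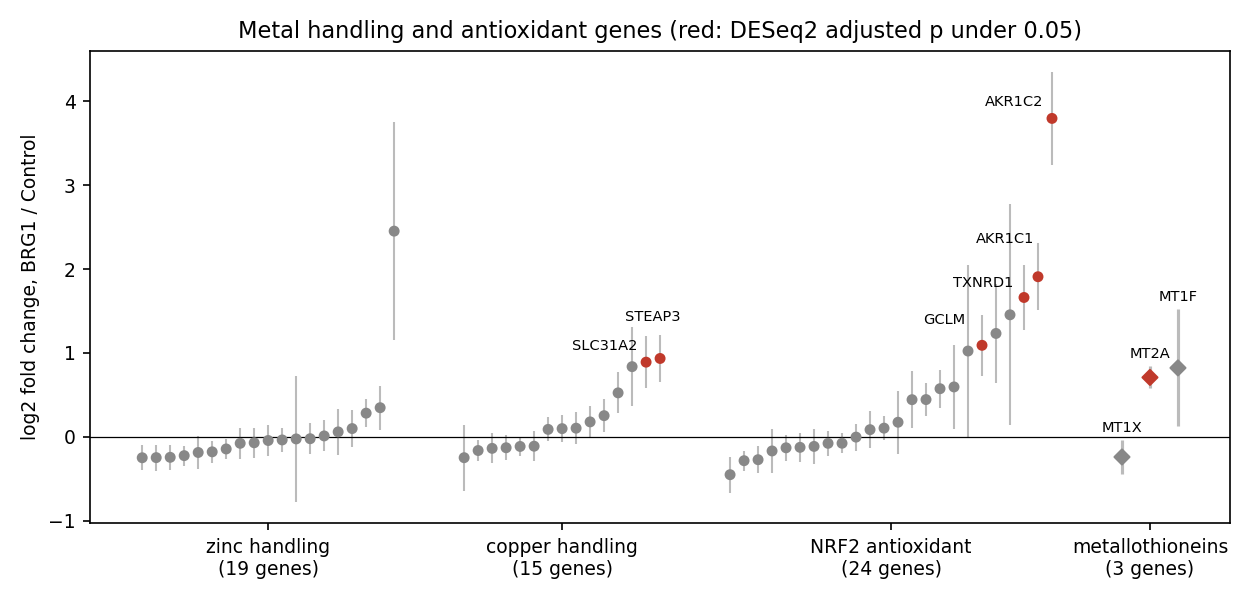
DESeq2 log2 differences (BRG1 over Control) with standard errors, sorted within zinc handling, copper handling, NRF2 antioxidant and metallothionein genes; red marks an adjusted p under 0.05, and genes with a group at 3 counts or fewer in every library are left out. Without the replicate block no zinc handling gene is red, and MT2A is the 1 red metallothionein.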

How the data were processed

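Poly(A) RNA of 3 Control and 3 BRG1 cultures was sequenced without keeping strand, in pairs of 78-base reads. For the deposited table the authors used STAR 2.5.3a on hg38 with GENCODE annotation, quantified transcripts with salmon 0.8.2 and summed them to gene symbols with tximport. Its values are deposited as estimated counts (lengthScaledTPM), scaled for transcript length, not divided by library size and with reads that fit several genes shared out by the model.

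Estimated counts were rounded to whole numbers. BRG1 was compared with Control over all genes with the Wald test of DESeq2 1.42.0 in R 4.3.3 (median-ratio size factors, independent filtering, no covariate), the tool the study names, and genes were called at a Benjamini-Hochberg adjusted p under 0.05. Where DESeq2 gave no adjusted p, none was filled in. Alternatives were edgeR 4.0.16 quasi-likelihood and limma 3.58.1 voom, both with TMM factors and a low-count filter, TMM factors in DESeq2, a filter of 10 counts in 3 samples, no independent filtering, a threshold of 0.01, the replicate number as a block, and leaving out each library. Each test was checked on simulated data, where false calls by DESeq2 exceeded the nominal share when few genes changed, so edgeR values stand beside its calls where edgeR tested the gene. A gene with at most 3 counts in every library of a group was treated as at the floor there.

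Deviations from the group means correlated between libraries of the same replicate number (r = 0.522, 0.524 and 0.614 over 11686 genes). The main fit left this pairing out. It entered only through the fits with the replicate block and the folds within pairs of one number. What libraries of one number share, in culture or in processing, was not tested. The series calls the cultures biological replicates.

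Annotation and transcripts were from GENCODE release 44 (GRCh38), a later release than the authors' on the same build, and promoters from RefSeq. The canonical transcript gave each coding sequence, except for MT1E, where the coding transcript nearest MT2A in length was used. The metallothioneins and gene lists were chosen with earlier results of these data known. All members were named, with MTF1, SLC30A1, up to 6 called genes of each list and the 5 genes most like MT2A, of which 1 is not reported here.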

Additional observations from a re-analysis of the deposited data

How the results depend on the processing

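MT2A was called higher, and MT1X and MT1F were not called, in all 14 alternatives run, with log2 differences of 0.66 to 0.76, -0.39 to -0.10 and 0.51 to 1.09. Over those fits the adjusted p of MT2A ran from 7.3e-08 to 0.00508. SMARCA4 stayed called. The summed count ratio, 1.13, ran from 1.06 to 1.17 over its alternatives; the mean of within-number ratios, as the replicate block, was 1.13. Adding the block changed no call among the members, SMARCA4 or NLRC5.

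The counts below moved, and the cause was not tested. Genes called lower (294) numbered 146 in edgeR, 169 in limma-voom, 130 for a threshold of 0.01, 1035 for the replicate block in DESeq2 and 809 for that block in edgeR. Leaving out 1 library gave 116 (BRG1 replicate 2) to 596 (BRG1 replicate 3). All genes called higher (1764) numbered 1435 at a threshold of 0.01. With 1 library left out they ran from 1350 (BRG1 replicate 1) to 1974 (BRG1 replicate 3), so list counts in those fits stand beside a moving background. Copper handling genes called higher (2) fell to 0 in edgeR, in limma-voom and at 0.01, and ran from 0 to 3: they were 0 without Control replicate 2 or 3 or BRG1 replicate 1, and 1 without Control replicate 1 or BRG1 replicate 2. NRF2 genes called higher (5) numbered 3 in edgeR and in limma-voom, 10 for the block in DESeq2 and 9 for it in edgeR, and ran from 3 (without BRG1 replicate 1 or 2) to 7 (without BRG1 replicate 3); those called lower (0) were 3 and 2 with the block in DESeq2 and edgeR. With the block, 1 zinc handling gene (SLC39A7, in DESeq2) and 1 neighbour (NUP93, in both tools) were called lower. Totals of 29699741 to 63613710 counts set the counting error, and limit MT1F and the members at the floor.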

Other observations

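Among 11684 genes with a mean of at least 100 normalised counts, TAPBP, COL5A3, ADORA1 and SMPD3 were among those that followed MT2A most closely over the 6 libraries, with Pearson's r of log2(normalised count + 1) between 0.996 and 0.997. TAPBP, which encodes the peptide loading factor tapasin, had a log2 difference of 0.96. COL5A3, SMPD3 and ADORA1 rose more, with log2 differences of 3.04, 3.13 and 4.40. With libraries in 2 groups such values mostly record the group difference, and 546 genes had an r over 0.95. MT1X had an r of -0.586 with MT2A.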
